A study of Mus musculus with 4 samples.

Results

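Intraflagellar transport and BBSome genes encode the machinery that builds primary and motile cilia and moves proteins along them. The 37 genes described here were chosen by symbol from the 23281 genes of the deposited table: every numbered Ift and Bbs gene, and 16 named motor subunits, small GTPases and adaptors, the best known being Ift88, Bbs4 and Kif3a. All 37 were listed and all passed the filter on low values. RNA sequencing had been done on horizontal basal cells (HBCs) and respiratory basal cells (RBCs) of the mouse nose. HBCs are the reserve stem cells of the olfactory epithelium, and RBCs are the basal stem cells of the neighbouring respiratory epithelium. The 3 HBC libraries came from wildtype cells cultured to passage 3 under control conditions, with no sort given. The 1 RBC library came from microdissected tissue of KRT5-CreER;Ai9-fl(stop)TdTomato mice, sorted as TdTomato+. In that strain a recombinase driven by the KRT5 promoter removes a stop element before a red reporter, so the sort takes cells in which the promoter had been active and their labelled descendants. The sources used here give no ages, animal numbers or pooling, and do not say that the 3 cultures came from separate animals. Culture, sorting, genotype and tissue all differ between the groups and cannot be told apart.

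Intraflagellar transport runs on trains made of a pair of protein complexes. The IFT-B complex travels with kinesin-2 motors towards the cilium tip, and the IFT-A complex travels with the dynein-2 motor back to the base and also admits membrane proteins. The BBSome is a coat-like cargo adaptor that rides on these trains and removes signalling receptors from cilia. Its loss causes Bardet-Biedl syndrome, in which the sense of smell is often lost, since olfactory neurons hold their odorant receptors on cilia. In the airway the same transport builds the motile cilia of multiciliated cells, and basal cells themselves can carry a primary cilium.

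Values are depth-scaled FPKM (fragments per kilobase of transcript, divided by 1 factor per library), and HBC means carry their SD (n = 3). A gene was called when limma's Benjamini-Hochberg adjusted p over all 16438 tested genes was under 0.05 and the change was at least 2-fold on the log2(value + 1) scale. Only the HBC libraries gave a spread, and the single RBC library was assumed to vary as they do. An exact two-sided permutation of 3 libraries against 1 cannot give a p below 0.25, and Bbs1, the member with the largest change, reached that value. Column sums of the deposited table ranged from 8377232 to 10855996, and depth in reads is unknown. Basal markers were present in both groups, with Krt5 at 18579 ± 368 in HBCs and 1.42-fold higher in the RBC library. Krt15 (1264 ± 41.4, 13.6-fold) and Dlk2 (54.4 ± 11 in HBCs, 32.6-fold) led the 7 of 10 basal markers with higher calls in RBCs, and 1 had a higher call in HBCs. Among all tested genes these shares were 34.2% and 12.8%. Markers of other cell types were also found in that library. It had higher calls for 26 of the 33 leukocyte, fibroblast and endothelial markers tested, and HBCs had higher calls for 2. Of these 33, 18 averaged below 1 in HBCs and passed the filter only through the RBC value, and 10 of the other 15 had higher calls in the RBC library. The summed level of these markers ranged from 3426 to 3632 over the HBC libraries against 24654 in the RBC library, and 6 of the 34 listed (Cldn5, Csf1r, Emcn, Fcer1g, Tie1 and Tyrobp) were at 0 in all HBC libraries. Most of the sum in the RBC library came from the macrophage and airway gene Lyz2 (14733, against 21.5 ± 2.99 in HBCs) and the fibroblast gene Dcn (6885, against 43.9 ± 11.8), while Col1a1 stood at 360, Tyrobp at 64.0, Cldn5 at 23.6 and Emcn at 12.1. In a bulk sample, fewer cells of a type and less RNA per cell cannot be told apart.

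The transport and BBSome genes were expressed in both groups. In every library 36 of the 37 stood at 10 or more. The exception was Kif17, a kinesin of neuronal and sensory cilia. The median level of the members was 157, 144 and 161 in HBC libraries 1, 2 and 3 and 230 in the RBC library. The HBC libraries agreed closely, with a median coefficient of variation of 4.69% over the members (range 0.459% for Ift46 to 25.1% for Bbs9). Pearson correlation of log2 values across the 37 genes, which are not independent replicates, was 0.992 to 0.994 between HBC libraries and 0.831 to 0.854 between HBC libraries and the RBC library.

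**Figure D1:**
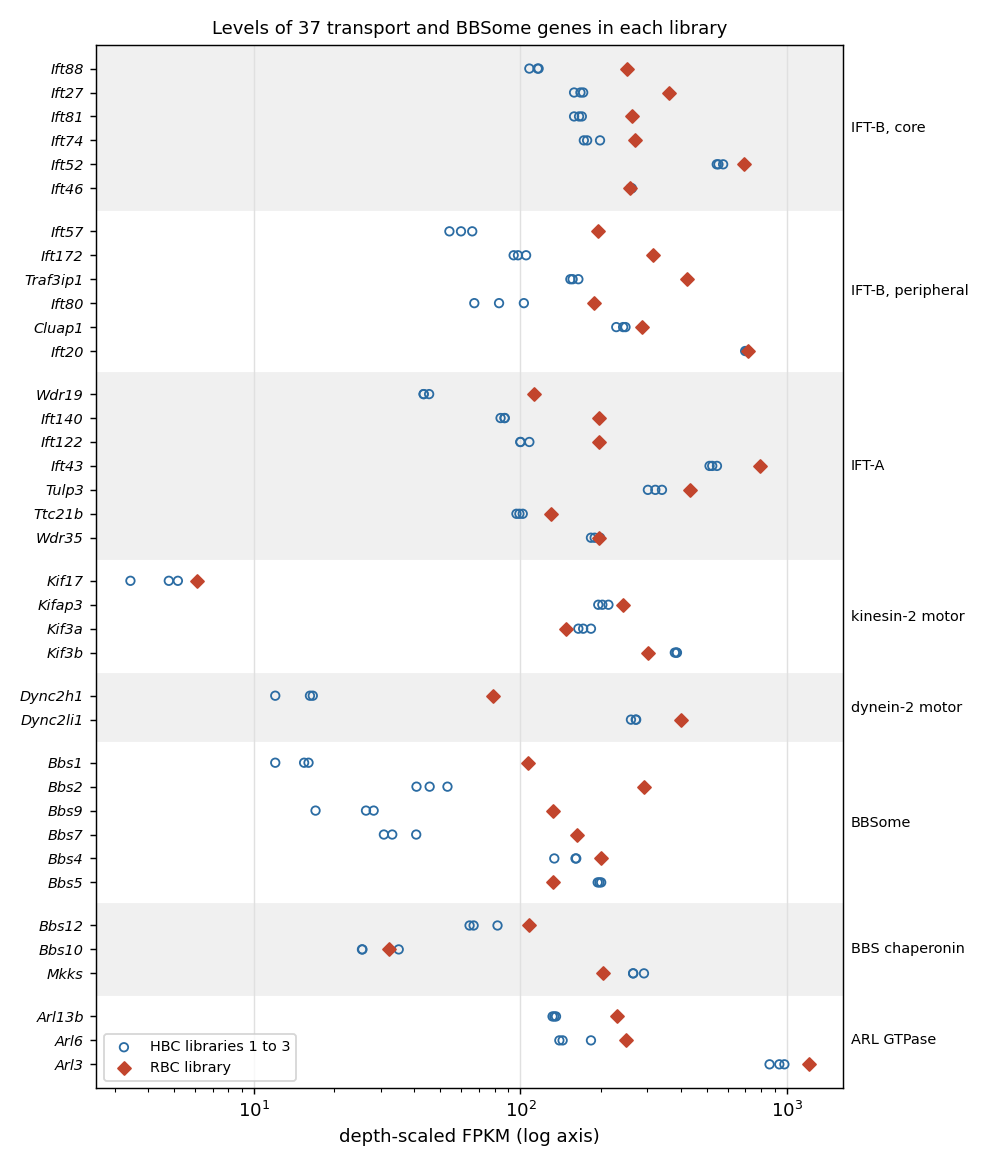
Depth-scaled FPKM (log axis) of each of the 37 genes, grouped by role, with open circles for the 3 HBC libraries and a diamond for the RBC library. The circles of a gene lie close together, most diamonds lie to their right, and Bbs1, Bbs2, Bbs7, Bbs9 and Dync2h1 show the widest gaps.

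Of the 37 genes, 12 (32.4%) had higher calls in the RBC library, 0 in HBCs, and 25 had no call. The share called higher was near that of all tested genes, 34.2%, so the count is no result about these genes. Among all tested genes 12.8% were called higher in HBCs. At an unadjusted limma p under 0.05, 25 of the 37 members were higher in the RBC library, against 48.5% of all tested genes, and 3 were lower, against 29.4%. With no fold minimum, 23 of the 37 were called higher, against 46.8% of all tested genes. At that rule 3, Bbs5, Kif3b and Mkks, were called lower, against 28.4% of all tested genes. The RBC value lay above all 3 HBC values for 30 members and below all 3 for 5, against 58.6% and 35.5% of all tested genes. The median log2 change was 0.58 for the members and 0.45 for all tested genes.

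The calls went with the level in HBCs. Of the 14 members that averaged below 100 in HBCs, 9 had higher calls in RBCs, and of the 23 at 100 or more, 3 were. Tested genes within the members' range of HBC means (4.46 to 927) showed a like pattern, with 43.9% of 4029 genes below 100 and 11.1% of 6584 genes at 100 or more called higher. Over that whole range 23.6% of genes had higher calls in RBCs, and the median log2 change was 0.20. These shares were computed after the values had been seen.

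How the libraries are scaled decides part of these calls. Setting the medians of the tested genes equal moved the median change over the tested genes by -0.50 on the log2 scale, and quantile normalization moved it by -0.49. Relative to that median, the members' median stood 0.13 higher at the scaling used here and with medians set equal, and 0.51 higher under quantile normalization. With medians set equal, 7 of the 37 members were called higher in RBCs, against 28.6% of all tested genes, and 1 in HBCs, against 23.5%. Quantile normalization gave 9 members, against 19.7% of all tested genes, and 3, against 21.4%. Values as deposited gave 13 (against 34.0%) and 0 (against 10.4%), and equal sums 14 (against 35.9%) and 0 (against 11.3%). Of the 12 members called higher, 7 were called under all 5 scalings: Bbs1, Bbs2, Bbs7, Bbs9, Dync2h1, Ift172 and Ift57. With medians set equal, Ift27, Ift88, Ift140, Traf3ip1 and Wdr19 kept a positive log2 change (0.61 to 0.91) but fell short of 2-fold. At that scaling 11 members that were not called turned from a positive to a negative log2 change: Arl3, Bbs4, Bbs10, Cluap1, Ift20, Ift52, Kif17, Kifap3, Ttc21b, Tulp3 and Wdr35.

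**Figure D2:**
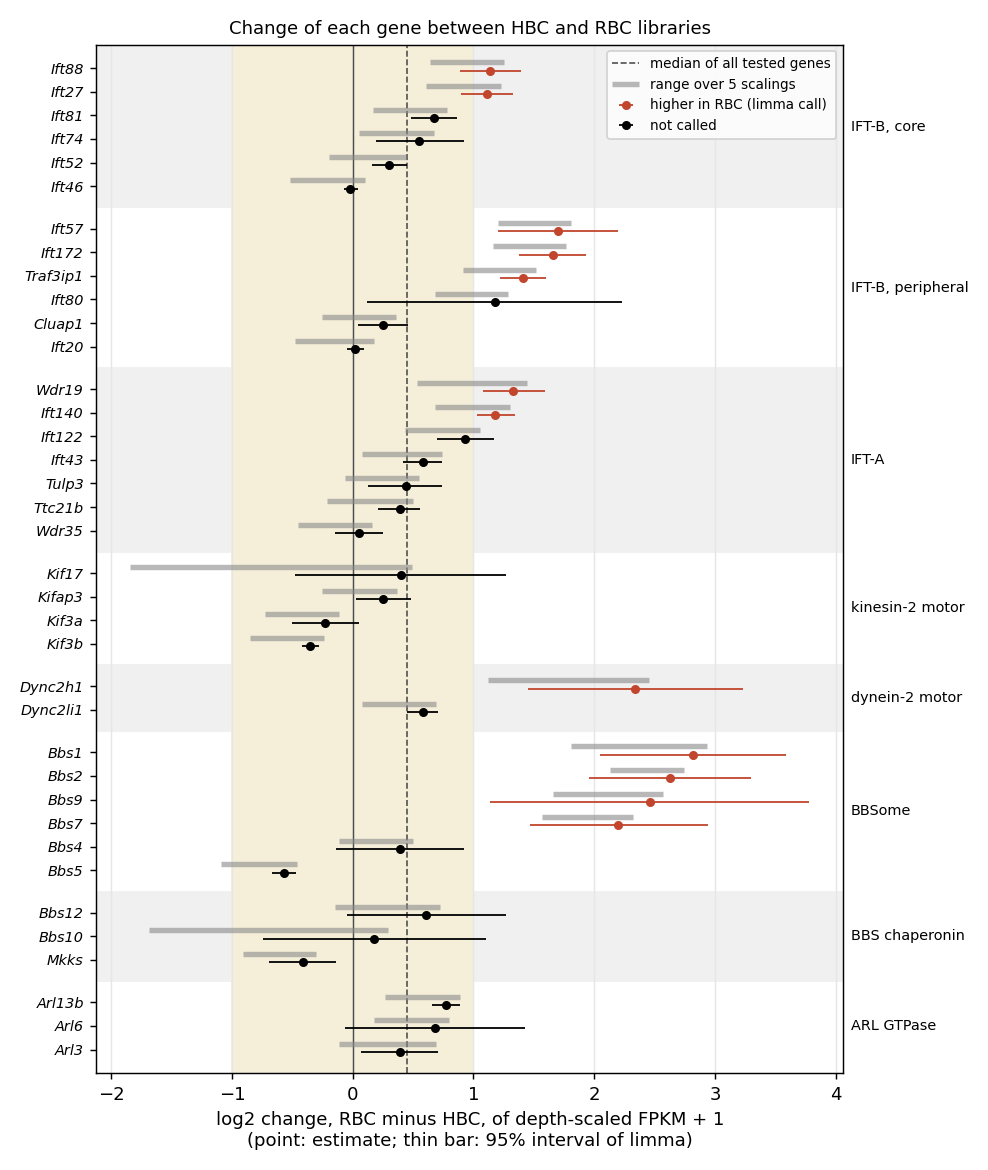
Log2 change (RBC minus HBC) of depth-scaled FPKM + 1 for each gene, with limma's 95% interval (thin bar) and, above it in grey, the range over 5 scalings. The shaded band marks changes under 2-fold and the dashed line the median of all tested genes at 0.45; 12 genes in red had higher calls in RBCs, and 7 of these lie beyond the band at every scaling.

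RFX transcription factors, which act with FOXJ1 on cilium genes, bind a DNA motif called the X-box. The promoters of the members were searched for it as a description only. Any part of RFX factors in the members' levels was not tested. Promoters were taken from RefSeq (build GRCm38.p6, windows of 300 bases, mostly before the start), which held 33 of the 37 genes by symbol. The X-box was written as GTNNCC, 0 to 3 free bases and NGNAAC on either strand, and its half-site as GTTGCC on either strand; a half-site can lie within an X-box. An X-box match was found for 6 of 33 members (18.2%), 5.94% of all 27025 genes with a promoter and 6.86% of tested genes. A half-site was found for 14 members (42.4%), 14.1% of all and 14.7% of tested genes. The motif was not particular to the members. Of the lists described below, X-box shares were 27.6% for other transport factors, 42.3% for the transition zone and 50% for the motile axoneme. They were 40% for olfactory neuron markers, 15.4% for multiciliated regulators and 9.09% for membrane cargo. In the members called higher in the RBC library, an X-box was found for 3 of 12 and a half-site for 9 of 12, and in those not called for 3 of 21 and 5 of 21. No test was run, and this split was made after the calls were known. The 12 sequences below are the matches of those 9 members and the X-box matches of 3 others (Bbs4, Ift74 and Kif17). They are on the strand of the gene, with capitals marking the match and up to 8 flanking bases on each side. Arl13b, Bbs5, Kif3a and Wdr35, which were not called, also hold a half-site, and these are not shown.

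Bbs1, chr19:4906605-4906634, minus strand: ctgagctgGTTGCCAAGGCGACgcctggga
Bbs7, chr3:36613489-36613518, minus strand: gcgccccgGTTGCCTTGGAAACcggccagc
Ift57, chr16:49699199-49699254, plus strand: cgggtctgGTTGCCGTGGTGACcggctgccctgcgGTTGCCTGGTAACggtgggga
Bbs4, chr9:59353464-59353493, minus strand: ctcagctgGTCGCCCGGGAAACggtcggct
Ift74, chr4:94614478-94614506, plus strand: cggtgaccGTTGCTAGGATACgcggcgtc
Kif17, chr4:138262170-138262198, plus strand: tcacggagGTTGCCCAGCAACggcgaacg
Dync2h1, chr9:7177009-7177030, minus strand: cggagcttGGCAACtgctgagt
Ift88, chr14:57424084-57424105, plus strand: tcgcgcctGGCAACggctgggc
Ift172, chr5:31291101-31291122, minus strand: gcactcacGTTGCCtgtgcgtc
Ift27, chr15:78174077-78174098, minus strand: tgatgatgGTTGCCaggagcct
Ift140, chr17:25015969-25015990, plus strand: gttgtgacGGCAACctcgcgcc
Traf3ip1, chr1:91494581-91494602, plus strand: gcgcgtccGTTGCCaaggccgc

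The first 6 are X-box matches and the rest are half-sites, read as GGCAAC where the half-site lies on the other strand. Ift57, one of the members called at every scaling, holds 2 X-box matches. Bbs2, Bbs9 and Wdr19 were called higher with neither motif in this window, which says only that these letters are not in it. Among the factors themselves, Rfx2 was at 40.4 ± 3.00 in HBCs and 4.47-fold higher in the RBC library (limma adjusted p = 0.00262), Rfx3 was at 20.2 ± 0.919 and 5.70-fold higher (limma adjusted p = 0.00164), and Rfx1 was not called (65.7 ± 4.81, 1.95-fold).

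The IFT-B complex forms the core of the anterograde train. Of the 12 member genes of this complex, the RBC library had higher calls for 5 (41.7%) and HBCs for 0, and 7 were not called. Their median log2 change was 0.89. With Ttc26, Ttc30a1, Ttc30b, Hspb11 and Rabl5, further subunits that go by other symbols, 5 of 17 were called (29.4%) and the median was 0.60. The share of all tested genes called higher in RBCs, 34.2%, lies between these shares, so the counts are no result about the complex. Among the 6 member genes of the core, which holds tubulin-binding and scaffold subunits, Ift88 and Ift27 were called. Ift88, whose loss abolishes cilia in mouse mutants, was at 108, 117 and 116 in HBC libraries 1, 2 and 3 and at 252 in the RBC library. The RBC value was above all HBC values and 2.21-fold higher than their mean (log2 change 1.14, SE 0.07, limma adjusted p = 0.00325), although the change was under 2-fold with medians set equal (0.64) and under quantile normalization (0.86). Ift27, a small GTPase-like subunit that links the train to the BBSome, was 2.17-fold higher (166 ± 6.87 against 361), with a log2 change of 1.11 that stayed called under quantile normalization. At the other end Ift46 was at 259, 262 and 260 in HBCs and 257 in the RBC library, the closest match among the members. Its log2 change was -0.02 (95% interval -0.07 to 0.04), and it turned to 0.10 with values as deposited. Ift52 (559 ± 16.4 against 690), Ift74 (183 ± 13.5 against 269) and Ift81 (165 ± 5.93 against 262), of which the last 2 bind tubulin together, were not called.

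Larger changes stood among the 6 peripheral IFT-B genes, which join the train to its kinesin and to the IFT-A complex. Ift57 was at 65.9, 54.1 and 59.8 in HBC libraries 1, 2 and 3 and at 196 in the RBC library. The groups did not overlap, and the RBC value was 3.28-fold higher (log2 change 1.70, SE 0.15, limma adjusted p = 0.00554). Ift172, the largest subunit, was 3.17-fold higher (99.0 ± 5.28 against 314), and Traf3ip1, a microtubule-binding subunit, was 2.66-fold higher (159 ± 5.80 against 423). Ift20, which also works at the Golgi, did not follow them. It was at 715, 698 and 708 in HBCs and 718 in the RBC library, a log2 change of 0.02 (95% interval -0.05 to 0.09) that became -0.48 with medians set equal. Cluap1, a further peripheral subunit, was at 240 ± 9.95 and 285. Ift80 was 2.24-fold higher in the RBC library (103, 83.1 and 67.1 against 189) and missed the call (limma adjusted p = 0.0516). The call was made by limma on the deposited values (adjusted p = 0.0226), on equal sums (0.0487) and at a minimum of 5 (0.0401), and the adjusted p over the alternatives reached 0.158.

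IFT-A genes, which serve the return journey, had the same median log2 change as the members as a whole. Of 7 genes in this group, the RBC library had higher calls for 2 (28.6%, near the 34.2% of all tested genes), and 5 were not called. Their median log2 change was 0.58. Wdr19, a scaffold subunit, was at 43.3, 45.4 and 43.3 in HBC libraries 1, 2 and 3 and at 112 in the RBC library. The RBC library was thus the highest, by 2.55-fold (log2 change 1.33, SE 0.07, limma adjusted p = 0.00254). Ift140 was 2.29-fold higher (86.2 ± 1.74 against 197). Both calls fell below 2-fold with medians set equal (0.83 for Wdr19 and 0.68 for Ift140) and under quantile normalization (0.53 and 0.80). Ift122 (103 ± 4.56 against 197) lay just under the 2-fold minimum, with a log2 change of 0.93, and passed it with equal sums (1.03). Wdr35, a subunit that also coats vesicles on the way to the cilium, was at 190, 184 and 199 in HBCs and 197 in the RBC library, inside the HBC range. Within each library Wdr35 stood 4.38, 4.06 and 4.60 times above Wdr19 in HBCs and 1.76 times above it in the RBC library, a ratio that no scaling of whole libraries by 1 factor can move. Ift43 (528 ± 17.1 against 791), Ttc21b (99.2 ± 2.56 against 130) and Tulp3 (321 ± 19.7 against 434), the adaptor that brings receptors to IFT-A, were not called.

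Subunits of the motors differed in their behaviour. None of the 4 kinesin-2 genes was called (median log2 change 0.01). Kif3a, a motor subunit needed for cilium assembly, was at 184, 165 and 172 in HBC libraries 1, 2 and 3 and at 148 in the RBC library, below all HBC values. Its log2 change was -0.23 (95% interval -0.50 to 0.05), and -0.73 to -0.11 over the 5 scalings. Kif3b, its partner, was at 387, 385 and 380 in HBCs and 301 in the RBC library, also below all HBC values and 1.27-fold higher in HBCs. The kinesin-associated subunit Kifap3 was at 196, 203 and 214 in HBCs and 243 in the RBC library. Kif17 was at 3.43, 5.17 and 4.78 in HBCs and 6.12 in the RBC library, the lowest level of any member, and its log2 change of 0.40 (95% interval -0.48 to 1.27) turned to -1.84 under quantile normalization.

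Dynein-2 showed a larger difference in its heavy chain than in its light intermediate chain. Dync2h1, the heavy chain that carries the motor domain, was at 16.6, 12.0 and 16.2 in HBC libraries 1, 2 and 3 and at 79.1 in the RBC library. The RBC value was 5.30-fold higher (log2 change 2.34, SE 0.26, limma adjusted p = 0.00896) and was called at every scaling. Dync2li1, the light intermediate chain, was at 260, 272 and 271 in HBCs and 400 in the RBC library, 1.49-fold higher and under the 2-fold minimum. Dync2li1 stood 15.7, 22.7 and 16.7 times above Dync2h1 in the HBC libraries and 5.06 times above it in the RBC library. Levels per kilobase are compared between genes here on the assumption that the deposited lengths fit the transcripts present.

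The BBSome genes held the widest contrast among the members. Of the 6 subunits with a Bbs number, the RBC library had higher calls for 4 (66.7%, against 34.2% of all tested genes). These were Bbs1, Bbs2, Bbs7 and Bbs9 (4.68-fold to 7.43-fold), and 2, Bbs4 and Bbs5, were not called. The median log2 change of the 6 was 2.33, and it was 1.83 with medians set equal and 1.62 under quantile normalization. With Ttc8 and Bbip1, the subunits that go by other symbols, 4 of 8 were called and the median was 1.34. Bbs1, the subunit that binds the recruiting GTPase ARL6, was at 12.0, 15.4 and 16 in HBC libraries 1, 2 and 3 and at 107 in the RBC library. The RBC library stood clear of the HBC libraries and 7.43-fold above their mean (log2 change 2.82, SE 0.23, limma adjusted p = 0.00479). Bbs2 was at 45.6, 40.7 and 53.2 in HBCs and 291 in the RBC library (6.26-fold, limma adjusted p = 0.00425). Bbs7, which pairs with Bbs2 in the complex, was at 40.6, 33.0 and 30.7 in HBCs and 163 in the RBC library (4.68-fold, limma adjusted p = 0.00694). Bbs9 was at 28.1, 17.0 and 26.3 in HBCs and 133 in the RBC library (5.57-fold, limma adjusted p = 0.0179). Leaving out HBC library 1 raised the limma adjusted p of Bbs9 to 0.0585, and leaving out library 3 raised it to 0.0697. Either ended its call, and its lowest value among the alternatives was 0.0118.

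Bbs4 and Bbs5 were the 2 Bbs-numbered subunits without a call. Bbs4, which lies near the centre of the complex and links it to centriolar satellites, was at 162, 134 and 161 in HBC libraries 1, 2 and 3 and at 200 in the RBC library. The RBC value was the highest, but the log2 change of 0.39 had a 95% interval of -0.14 to 0.92 and turned to -0.11 with medians set equal. Bbs5, a subunit that binds membrane lipids, was at 198, 201 and 195 in HBCs and 133 in the RBC library, where it was below all HBC values. It was 1.49-fold higher in HBCs (log2 change -0.57, 95% interval -0.67 to -0.47) and passed the 2-fold minimum, as higher in HBCs, with medians set equal (-1.07) and under quantile normalization (-1.09).

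The levels of these 6 genes were spread widely in HBCs and lay closer together in the RBC library. In all 3 HBC libraries their order from highest to lowest was Bbs5, Bbs4, Bbs2, Bbs7, Bbs9 and Bbs1, and the highest exceeded the lowest 16.4-fold, 13.1-fold and 12.2-fold. In the RBC library the order was Bbs2, Bbs4, Bbs7, Bbs5, Bbs9 and Bbs1, and the highest exceeded the lowest 2.71-fold. Bbs5 stood 16.4, 13.1 and 12.2 times above Bbs1 in the HBC libraries and 1.24 times above it in the RBC library. Bbs5 was also 4.34, 4.93 and 3.66 times above Bbs2 in HBCs and 0.457 times its level in the RBC library. With Ttc8 and Bbip1 included, Bbip1 was the highest of the 8 in every HBC library, and the highest exceeded the lowest 19.9-fold, 17.5-fold and 17.1-fold in HBCs and 2.71-fold in the RBC library. Among the members, peripheral IFT-B genes narrowed from 10.8-fold to 12.9-fold in HBCs to 3.79-fold in the RBC library. Core IFT-B members narrowed from 4.71-fold to 5.37-fold in HBCs to 2.74-fold in the RBC library. All 17 IFT-B genes, with Ttc26, Ttc30a1, Ttc30b, Hspb11 and Rabl5 included, did not narrow. They spanned 17.5-fold, 16.8-fold and 16.6-fold in HBC libraries 1, 2 and 3 and 19.9-fold in the RBC library. No test of these spreads was run.

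**Figure D3:**
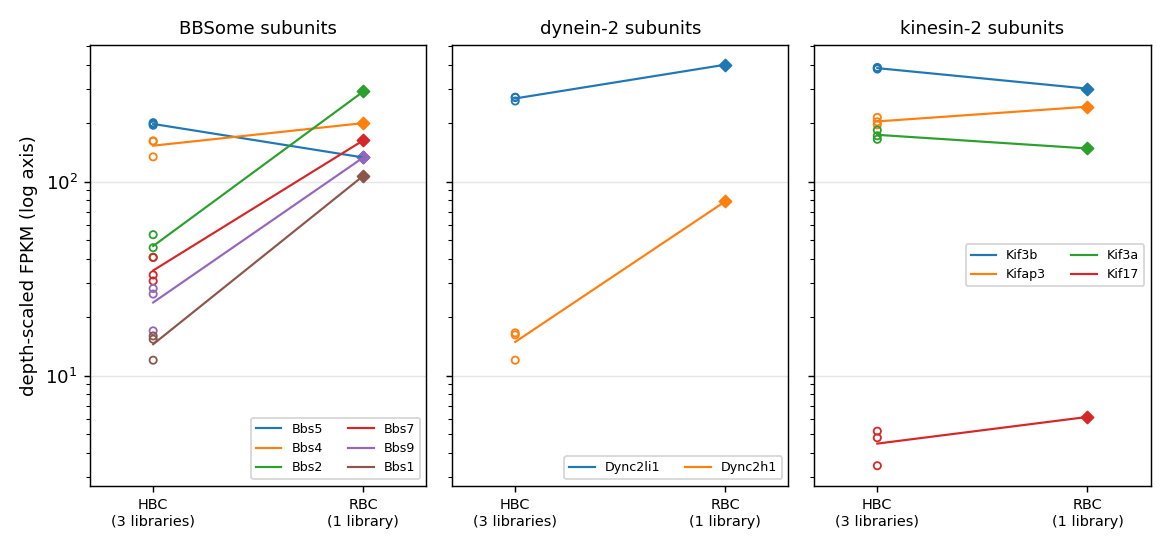
Depth-scaled FPKM (log axis) of BBSome, dynein-2 and kinesin-2 subunits, with open circles for the 3 HBC libraries, a diamond for the RBC library and a line from the HBC mean to the RBC value. The 6 Bbs-numbered BBSome subunits span 12.0 to 201 in HBC libraries and 107 to 291 in the RBC library, while lines of the kinesin-2 genes are nearly level.

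The chaperonin-like BBS proteins, which assemble the BBSome, did not share the changes of its subunits. None of the 3 was called. Mkks was at 291, 265 and 265 in HBC libraries 1, 2 and 3 and at 205 in the RBC library, below all HBC values (log2 change -0.41, 95% interval -0.69 to -0.14). Bbs10 was at 25.4, 25.5 and 34.9 in HBCs and 32.2 in the RBC library, inside the HBC range. Its log2 change of 0.18 (95% interval -0.74 to 1.10) leaves a difference of 2-fold upwards within reach, and it was -1.69 and called higher in HBCs under quantile normalization. Bbs12 was at 82.0, 66.7 and 64.4 in HBCs and 108 in the RBC library, above all HBC values but not called (log2 change 0.61, 95% interval -0.05 to 1.27).

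Small GTPases of the ARL family steer cargo in and out of cilia, and none of the 3 was called. Arl6, which recruits the BBSome to membranes, was at 140, 144 and 184 in HBC libraries 1, 2 and 3 and at 249 in the RBC library. Arl13b, which activates ARL3 and marks the ciliary membrane, was at 132, 134 and 136 in HBCs and 230 in the RBC library. Arl3, which releases lipid-modified cargo inside the cilium, was the most abundant member in every library, at 938, 862 and 980 in HBCs and 1215 in the RBC library. In each case the RBC value was above all HBC values, by 1.60-fold, 1.72-fold and 1.31-fold, and under 2-fold at every scaling.

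Counting without a stated strand setting limits 8 members whose exons overlap an exon of another gene in GENCODE M21. That annotation was used here for the overlaps and their strands, and the one behind the deposited values was not given. Ift88 overlaps Ift88os, Bbs4 overlaps Adpgk, Mkks overlaps Slx4ip and Bbs12 overlaps Cetn4, all on the opposite strand, and Kif17 overlaps Sh2d5 on its own strand. Mkks and Bbs12 also overlap less known transcript models on their own strand. Arl6, Cluap1 and Ift57 overlap non-coding transcripts on the opposite strand, and Cluap1 also overlaps the gene model Gm20695 on its own strand. Reads from such pairs cannot be told apart.

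Other subunits and regulators of transport, named by symbols that the choice of members did not cover, moved in both directions. In that list of 36 tested genes the RBC library had higher calls for 11 (30.6%, near the 34.2% of all tested genes). HBCs had higher calls for 2, against 12.8% of all tested genes, and 23 had no call. The list's median log2 change was 0.50 (0.09 under quantile normalization, against 0.46 for the members). The log2 change was below 0 for 13 of the 36, against 5 of the 37 members, and no test of this difference was run. Among these, the 5 remaining IFT-B subunits that were tested had no call. Rabl5 was at 540 ± 17.9 in HBCs and 1.64-fold higher there, Hspb11 was at 563 ± 46.2 and 1.69-fold higher there, and Ttc26 was at 41.7 ± 0.884 and 1.53-fold higher in the RBC library. The BBSome subunits Ttc8 (95.5 ± 15.2 in HBCs, 1.39-fold higher in the RBC library) and Bbip1 (260 ± 18.3 in HBCs, 1.53-fold higher there) and the BBSome regulator Lztfl1 (266 ± 17.7, 1.24-fold higher in HBCs) were not called either. A dynein-2 intermediate chain, Wdr60, was 3.74-fold higher in the RBC library (60.9 ± 6.12 in HBCs, limma adjusted p = 0.00489), and the other, Wdr34, was not called (276 ± 28.4, 1.33-fold). The largest rises of the list were those of Dynlrb2, a light chain that other dyneins also use, and Ttc29. Dynlrb2 was at 0, 2.93 and 3.00 in HBC libraries 1, 2 and 3 and at 1552 in the RBC library, and Ttc29 was listed at 0 in HBCs and stood at 103 in the RBC library. Ttc29 thus passed the filter only through the RBC value. Dynlrb2, at 1.97 ± 1.71 in HBCs, also needed its RBC value to pass, so neither call is support. The largest fall was that of another dynein light chain. Dynlt1b was at 83.4, 73.2 and 118 in HBCs and 1.63 in the RBC library, but reads could have been divided between it and its near-identical copies, which leaves its value uncertain. With medians set equal, the list had 8 higher calls in RBCs and 10 in HBCs, against 28.6% and 23.5% of all tested genes.

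Genes of the transition zone and basal body, the gate and anchor through which transport passes, had higher calls in RBCs in 14 of 30 cases. That is 46.7%, against 34.2% of all tested genes. Their median log2 change was 0.94, and none was called higher in HBCs, against 12.8% of all tested genes. Cc2d2a, a gate component, was at 6.63, 4.26 and 7.34 in HBC libraries 1, 2 and 3 and at 185 in the RBC library. With medians set equal the count for this list was 8 of 30, against 28.6% of all tested genes, and 1 was called higher in HBCs. Under quantile normalization it was 5 of 30, against 19.7%, and 2 were called higher in HBCs. The difference from all genes was not tested. Calls for higher levels in RBCs came to 5 of 9 tested genes of ciliary membrane cargo, against 34.2% of all tested genes. The hedgehog receptor component Smo (380 ± 1.51 in HBCs, 1.34-fold) was 1 of the 4 without a call. Adcy3, the adenylyl cyclase of olfactory and neuronal cilia, was at 11, 14.4 and 13.7 in HBCs and 458 in the RBC library, and Gli2, a hedgehog transcription factor, was at 0.178, 0.143 and 0.564 and at 85.2. Gli2 averaged below 1 in HBCs and passed the filter only through the RBC value, so its call is no support. Sstr3 and Mchr1 were listed at 0 in all HBC libraries, and Mchr1 also in the RBC library.

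Genes of motile cilia were also high in the RBC library. Of 32 tested genes of the motile axoneme, 30 were called higher in RBCs, against 34.2% of all tested genes, and none in HBCs. Their median log2 change was 5.96. However, 18 of the 32 averaged below 1 in HBCs and passed the filter only through the RBC value, so their calls and the median are no support. Of the other 14, 12 were called higher in RBCs. Among these 12 were Dnali1 (mean 1.31 in HBCs), Spag16 (1.1), Ccdc39 (1.22) and Ccdc40 (1.13). These also needed the RBC value to pass the filter, so their calls are no support either. Summed levels of that list ran from 1141 to 1265 over the HBC libraries and reached 7273 in the RBC library. Dnaic1 and Tekt1 were listed at 0 in all 3 HBC libraries, and Tekt1, a filament protein of the axoneme, was at 280 in the RBC library. Ak7, an adenylate kinase of motile cilia, was at 0.801, 0 and 0 in HBCs and at 242 in the RBC library. The difference between this list and the members was not tested. Regulators of multiciliated cells, 17 of them tested, gave 12 higher calls in the RBC library and 3 in HBCs, against 34.2% and 12.8% of all tested genes. Of these 17, 5 averaged below 1 in HBCs and passed the filter only through the RBC value. Ccno (mean 1.33 in HBCs) and Ccdc78 (1.81) also needed the RBC value to pass. The master regulator Foxj1 was at 72.2, 65.4 and 70.4 in HBCs and 722 in the RBC library (10.4-fold, limma adjusted p = 0.000561). Trp73 stood at 187 in the RBC library and was listed at 0 in every HBC library, and Ccno was at 0.692, 1.11 and 2.2 in HBCs and at 162.

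**Figure D4:**
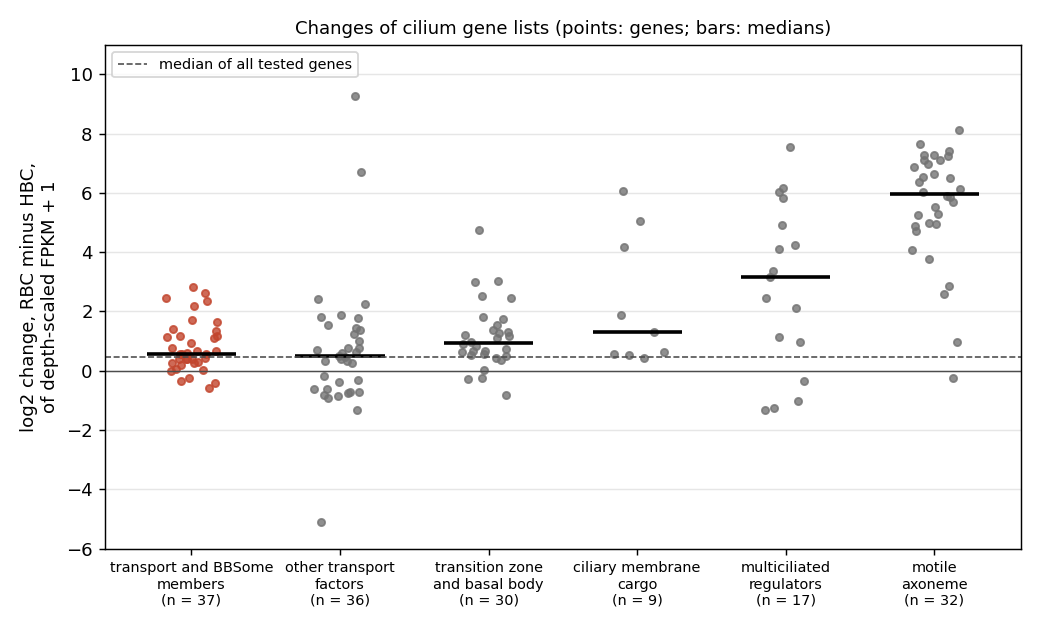
Log2 change (RBC minus HBC) of each tested gene in the 37 transport and BBSome members and 5 other cilium lists, with a black bar at each list's median and a dashed line at the median of all tested genes, 0.45. Medians of the members (0.58) and of the other transport factors (0.50) lie near the dashed line. That of the motile axoneme list lies at 5.96, with 18 of its 32 genes below 1 in HBCs and tested only through their RBC value.

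Olfactory sensory neurons also bear cilia. Higher calls in RBCs held for 13 of their 14 tested markers, against 34.2% of all tested genes. Of these 13, 6 averaged below 1 in HBCs and were tested only through the RBC value, and Ano2 (1.02 ± 0.531 in HBCs) also needed it. The 15 listed markers together made up 204 to 241 in HBC libraries against 6113 in the RBC library. Cngb1, Rtp1, Rtp2, Stmn3 and Stoml3 were at 0 in all HBC libraries, and in the RBC library Stoml3 stood at 963, Rtp1 at 203 and Cngb1 at 0. Dividing cells resorb their primary cilium. HBCs had higher calls for 9 of 12 genes of the cell cycle, against 12.8% of all tested genes. The levels of the 12 together made up 3531 to 3677 in HBC libraries against 985 in the RBC library. Bub1 was 7.93-fold higher in HBCs (126 ± 12.6) and Ccnb1 6.62-fold higher (379 ± 26.1). The part of ciliated cells, neurons, other cell types and cell division in the changes of the transport and BBSome genes was not tested.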

How the data were processed

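The authors deposited 1 table of FPKM values, 1 column per library, for 3 HBC libraries and 1 RBC library. Build mm9 and the tools STAR, Cuffnorm and Cufflinks 2.2.1 are listed, per the submitters' processing notes, without their roles. The annotation, any filter and the use of strand were not given in the sources used here. In genes below 4 in every library, 12.4% to 26.0% of the genes above 0 in both libraries of a pair had a ratio within 2% of 1, while column sums differed. The deposited FPKM values were thus taken to carry depth and were divided by 1 factor per library: its median ratio to geometric means, taken over the 11134 genes that reach 10 in every library (0.845, 1.05, 1.07 and 1.06). Genes were tested where the 2 group levels averaged at least 1, on log2(value + 1), a scale that understates changes of low genes, with limma 3.58.1 in R 4.3.3 (two-sided eBayes statistics with a trend of variance on level, Benjamini-Hochberg). The procedure was checked on simulated data. Since the cultures may not be independent, p-values cover only the spread among these libraries, possibly a technical one. The members and lists were chosen with earlier results of these data known. The 11 lists held 202 entries, 3 matched by another symbol; Rabl4, the same gene as Ift27, and Bbip10 were dropped. Library values are given for Ift88, Bbs4 and Kif3a, for groups of 4 or fewer genes, and for the largest, smallest and any opposite change in each other group; in other lists the 2 largest called changes are named, except 1 gene that is not reported here. Bbs2, Bbs7, Bbs9, Dync2li1, Ift80 and other genes outside this rule were named after their values were seen. Alternatives were other scalings, pseudocounts, filters, call rules and leaving out each HBC library.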

Additional observations from a re-analysis of the deposited data

How the results depend on the processing

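No paired analysis was possible because the labels give no pairing between HBC and RBC libraries. The pseudocount of 0.1, the absent filter and the absent mean-variance trend left 12 members called higher in RBCs and 0 called higher in HBCs; the minimum of 5 gave 13, values as deposited 13, equal sums 14, quantile normalization 9 and medians set equal 7. With no fold minimum 23 members were called higher in RBCs and 3 in HBCs. Members called higher in HBCs numbered 1 with medians set equal (Bbs5) and 3 under quantile normalization (Bbs5, Bbs10 and Kif17). The members' median log2 change was 0.69 with values as deposited, 0.68 with equal sums, 0.08 with medians set equal and 0.46 under quantile normalization. Over all tested genes, 5619 were called higher in RBCs and 2105 in HBCs; quantile normalization gave 3238 and 3515, medians set equal gave 4701 and 3869, and no fold minimum gave 7694 and 4668. Leaving out each HBC library gave 11 to 12 members higher in RBCs, 0 higher in HBCs, a median of 0.57 to 0.61, and 4947 to 5028 and 1993 to 2005 of all genes; only Bbs9 lost its call. With medians set equal, the log2 change turned negative for Arl3 (-0.11), Bbs4 (-0.11), Bbs10 (-0.32), Cluap1 (-0.25), Ift20 (-0.48), Ift52 (-0.20), Kif17 (-0.10), Kifap3 (-0.25), Ttc21b (-0.11), Tulp3 (-0.06) and Wdr35 (-0.45), and under quantile normalization for Bbs10 (-1.69), Bbs12 (-0.15), Kif17 (-1.84), Ttc21b (-0.21) and Wdr35 (-0.25). That of Ift46 turned positive with values as deposited (0.10) and equal sums (0.08). Other transport factors called higher in RBCs numbered 11, against 7 under quantile normalization, 18 with no fold minimum and 7 without HBC library 2; those higher in HBCs numbered 2, against 10 with medians set equal and 11 with no fold minimum. With no fold minimum the transition zone list had 24 genes higher in RBCs and the membrane cargo list 9, against 46.8% of all tested genes. Fibroblast markers went from 9 to 5 and endothelial ones from 8 to 4 under quantile normalization, and the latter to 5 with a pseudocount of 0.1 or the minimum of 5. For Dynlrb2 the limma adjusted p rose to 0.0573 at a pseudocount of 0.1 and to 0.0502 without HBC library 2, which ended its call. The share of member promoters with a match was 18.2% for the X-box and 42.4% for the half-site. The cause of these differences was not tested. The number of reads is unknown, so counting error could not be given.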
